A study of Mus musculus with 12 samples.

Results

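The H3K27ac peaks of mouse embryonic stem (ES) cells that lay in long terminal repeat (LTR) retrotransposons numbered 1259 of 66607 peaks in 4 lists. They were 539 of 21418 peaks in the control, 393 of 17759 with GW3965, 139 of 12472 with LG268 and 188 of 14958 with RA. A peak was a member if the deposited annotation of its centre named a repeat of class LTR. Because that annotation put promoters and exons ahead of repeats, members could only lie in introns (169 of 539 in the control) or between genes (370).

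The cells were wild type E14 mouse ES cells, grown on gelatin without feeders in serum and LIF. They received the vehicle, dimethylsulfoxide, or a ligand at 1 µM for 24 h; the time is not given for the control. GW3965 is an agonist of the liver X receptor (LXR), LG268 an agonist of the retinoid X receptor (RXR), and RA is all-trans retinoic acid, the ligand of the retinoic acid receptor. Chromatin was immunoprecipitated with an antibody against acetylated lysine 27 of histone H3 (H3K27ac) or against RXR, with 1 library per treatment and antibody. RXR was also mapped at days 8 and 16 of neural differentiation through embryoid bodies, which were given 5 µM RA, with 2 libraries per day. No treatment had a replicate, so no difference between treatments could be tested. The intervals below are exact 95% intervals that cover counting error only, and depth is unknown because the lists give no read totals. Of 13 ES cell marker genes, 6 had an H3K27ac peak within 1 kb of the start site in the control, 7 with GW3965, 4 with LG268 and 3 with RA. Nanog, Esrrb, Dppa5a and Tdgf1 had none in any list. Of 7 neural progenitor markers 3, 2, 0 and 0 had such a peak, in the same order of lists. Of 5 endoderm markers only Sox17 had one, with RA, and of 5 mesoderm markers only Kdr, in the control. None of the 5 fibroblast and 5 trophoblast markers had one.

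LTR retrotransposons are the remains of retroviruses and their relatives. The repeats at both ends of a full copy carry the promoter and enhancer that drive its transcription, and the internal part, named with the ending -int, encodes the viral proteins. Recombination between the ends leaves a solitary LTR, which can go on acting as a promoter or enhancer for nearby genes. In mouse the class divides into ERV1, ERVK, which includes the IAP, ETn and MMERVK elements, ERVL, and the non-autonomous ERVL-MaLR, which includes the ORR1 and MT elements. In ES cells many copies are silenced by KRAB zinc finger proteins, which recruit TRIM28 and the H3K9 methyltransferase SETDB1. H3K27ac marks active promoters and enhancers.

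Of the 40 control peaks of RMER17B, the most frequent element of the control list, 23 lay within 1 kb of a start site, all on chromosome 2. A smaller group of RLTR22_Mur peaks lay beside genes on chromosome 13. Promoters next to these peaks are shown because some of the peaks reach into them and because their likeness bears on how reads can be placed. Of 22 genes with an RMER17B or RLTR22_Mur peak within 1 kb of the start, 18 were in the RefSeq promoter table of GRCm38.p6. For 6 of them the peaks of at least 2 lists overlapped the promoter window, which runs from 250 bases before to 50 after the start. The 250 bases before the start site of these 6 genes, which peaks of at least 2 lists reached at 5 genes and the GW3965 peak alone reached at Gm14325, are given from 5′ to 3′ in the direction of the gene. Capitals mark the longest run that all 6 have in common. By coordinates, this run lay outside the LTR peaks of every list at Gm14305, Gm14325 and Etohi1. At Zfp931, Zfp808 and Zfp935 an LTR peak reached only part of it. The run thus describes the promoters beside the peaks, and whether it belongs to the repeats was not tested. The first 4 genes have an RMER17B peak and the last 2 an RLTR22_Mur peak. Etohi1, as the files name it, is Zfp971 in RefSeq.
Gm14305, chr2:176708103-176708352, plus strand: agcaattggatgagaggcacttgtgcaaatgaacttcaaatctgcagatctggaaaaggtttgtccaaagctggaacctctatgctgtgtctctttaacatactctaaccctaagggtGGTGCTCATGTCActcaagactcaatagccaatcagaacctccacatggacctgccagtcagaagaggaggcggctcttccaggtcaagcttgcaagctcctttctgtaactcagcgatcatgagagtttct
Gm14325, chr2:177840337-177840586, minus strand: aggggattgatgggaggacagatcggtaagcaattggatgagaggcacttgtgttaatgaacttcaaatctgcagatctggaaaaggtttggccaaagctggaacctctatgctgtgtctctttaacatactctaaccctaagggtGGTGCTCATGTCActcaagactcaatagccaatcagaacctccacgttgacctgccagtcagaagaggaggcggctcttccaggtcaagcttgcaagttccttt
Etohi1, chr2:178023034-178023283, plus strand: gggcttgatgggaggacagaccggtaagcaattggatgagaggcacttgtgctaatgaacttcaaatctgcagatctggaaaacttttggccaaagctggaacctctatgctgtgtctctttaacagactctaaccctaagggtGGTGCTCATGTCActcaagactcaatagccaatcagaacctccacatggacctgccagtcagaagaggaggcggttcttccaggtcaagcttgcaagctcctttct
Zfp931, chr2:178078426-178078675, minus strand: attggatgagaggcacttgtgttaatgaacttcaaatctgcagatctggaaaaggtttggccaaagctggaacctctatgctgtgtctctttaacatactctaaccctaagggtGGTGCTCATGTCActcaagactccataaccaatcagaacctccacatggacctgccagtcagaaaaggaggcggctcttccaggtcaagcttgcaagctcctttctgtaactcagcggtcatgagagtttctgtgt
Zfp808, chr13:62129640-62129889, plus strand: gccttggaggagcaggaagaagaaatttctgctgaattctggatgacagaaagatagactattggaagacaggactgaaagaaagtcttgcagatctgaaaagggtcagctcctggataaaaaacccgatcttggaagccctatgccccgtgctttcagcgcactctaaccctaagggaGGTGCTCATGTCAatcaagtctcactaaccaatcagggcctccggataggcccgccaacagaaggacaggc
Zfp935, chr13:62466813-62467062, minus strand: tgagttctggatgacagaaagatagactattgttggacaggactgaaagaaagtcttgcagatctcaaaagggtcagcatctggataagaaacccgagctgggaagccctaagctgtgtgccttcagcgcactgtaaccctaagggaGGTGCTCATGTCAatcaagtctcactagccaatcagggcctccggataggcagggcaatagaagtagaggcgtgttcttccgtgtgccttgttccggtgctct

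Aligned without penalty for the ends, the 4 promoters beside RMER17B were 96.0% to 97.3% identical over 218 to 248 bases in 6 pairs. The promoters of Zfp808 and Zfp935, beside RLTR22_Mur, were 89.4% identical over 218 bases. Between the groups identity was 65.7% to 69.3%. The capital run of 13 bases began 71 to 136 bases before the start site. It occurred on either strand in the same window of 34 of 27025 genes, 0.126%, of which 31 were on chromosome 2 and 3 on chromosome 13. Of these 34 genes, 17 had an LTR H3K27ac peak within 1 kb in at least 1 list. The 6 genes that defined the run are among these 17 by selection, since they were picked for such peaks. The share over all genes was not taken, so the count does not tie the run to LTR peaks. The windows held 2 or 3 CpG dinucleotides beside RMER17B and 5 or 6 beside RLTR22_Mur.

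ERVK was the leading family in every list. It held 338 of 539 LTR peaks in the control (62.7%, interval 58.5 to 66.8%), 242 of 393 with GW3965 (61.6%), 92 of 139 with LG268 (66.2%) and 118 of 188 with RA (62.8%). The 4 shares differed by less than their counting intervals. ERVL-MaLR followed in the control with 96 peaks (17.8%), then ERV1 with 58 (10.8%) and ERVL with 45 (8.35%). The internal parts of elements held 138 control peaks (25.6%, 22.0 to 29.5%), 93 with GW3965 (23.7%), 31 with LG268 (22.3%) and 29 with RA (15.4%). The remaining 401 control peaks were in elements not named internal. Altogether 185 elements were named in the control list, 94 of them by 1 peak only, and the 5 most frequent held 28.4% of the peaks. These top 5 shares were 26.5% with GW3965, 28.8% with LG268 and 28.7% with RA.

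RMER17B had 40 peaks in the control, 26 with GW3965, 19 with LG268 and 24 with RA. RLTR17, the LTR of another ERVK, had 36, 31, 10 and 16 in the same order. Both were among the elements found in numbers in all 4 lists. ETnERV-int had 30, 20, 1 and 1, and MMETn-int had 25, 15, 5 and 2. These are internal parts of the ETn group, early transposons that are known for transcription in early embryos and for insertions in mouse strains. MMERVK9C_I-int had 22, 12, 2 and 3 peaks. These 3 internal elements were thus frequent in the control and GW3965 lists and rare in the other lists. ORR1E, an ERVL-MaLR element, had 14, 6, 3 and 5 peaks. RLTR23, of ERV1, had 14, 12, 2 and 4. MTD had 12, 7, 3 and 4, and RLTR9E had 11, 4, 2 and 1. No other element reached 10 peaks in a list.

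**Figure D1:**
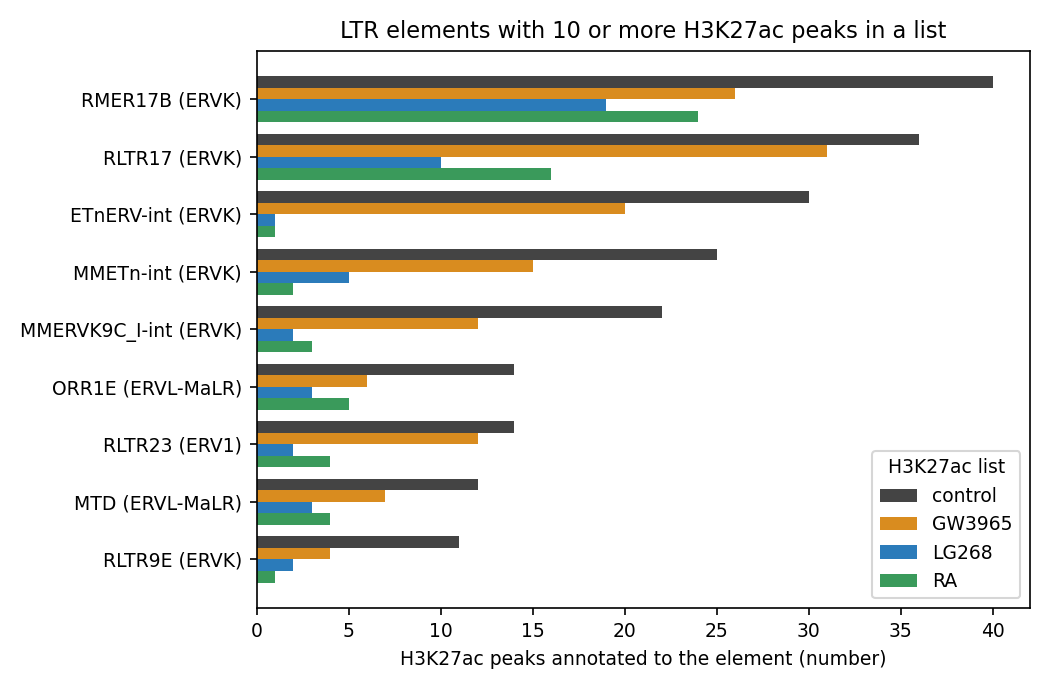
Number of H3K27ac peaks annotated to each LTR element with at least 10 peaks in a list, in the control, GW3965, LG268 and RA lists (1 library each, so no error bars). RMER17B has 19 to 40 peaks in each list and ETnERV-int has 30 in the control, 1 with LG268 and 1 with RA; with lists of equal length RMER17B has 17, 14, 19 and 15 and ETnERV-int and MMETn-int together 6, 8, 6 and 2.

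These numbers move with the length of the lists. The ligand lists held 0.829, 0.582 and 0.698 times as many peaks as the control for GW3965, LG268 and RA. The LTR peaks stood at 0.729, 0.258 and 0.349 times the control, and LINE peaks at 0.758, 0.196 and 0.331 times. Intron and intergenic peaks outside repeats and CpG islands, the comparison set used below, stood at 0.802, 0.480 and 0.616 times. LTR peaks made up 2.52% of the control list (2.31 to 2.74%), 2.21% of the GW3965 list (2.00 to 2.44%), 1.11% of the LG268 list (0.938 to 1.31%) and 1.26% of the RA list (1.08 to 1.45%). The order did not hold when each list was limited to its 12472 highest peaks. The LTR peaks then numbered 114 in the control, 151 with GW3965, 139 with LG268 and 118 with RA. RMER17B had 17, 14, 19 and 15 peaks in these shortened lists, and the 2 ETn elements together had 6, 8, 6 and 2. LTR peaks were weak within their lists. Their median score, a value the authors gave each peak, was 4.96 in the control, against 8.22 over all control peaks and 5.99 in the comparison set. With GW3965, LG268 and RA the LTR medians were 4.99, 4.71 and 4.92, against 8.17, 7.32 and 7.81 over all peaks. Low scores were not particular to LTR peaks. LINE medians were 5.06 in the control and 4.64, 4.13 and 4.48 with the ligands. SINE medians were 5.19, 5.11, 4.78 and 5.665 in the same order of lists.

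By median, LTR peaks lay farther from start sites than the comparison set, with RMER17B apart. The median distance to the nearest transcription start site (TSS) was 27128 bp in the control, 22763 bp with GW3965, 24977 bp with LG268 and 24414 bp with RA. The comparison set had medians of 9835, 6765, 1358 and 2100 bp. LINE peaks lay farther than LTR peaks, with medians of 119536, 117346, 89172 and 117658 bp in the same order of lists. SINE peaks lay nearer than LTR peaks, at 17120, 12222, 7046 and 8485 bp. Within 1 kb of a TSS lay 33 control LTR peaks, 29 with GW3965, 16 with LG268 and 22 with RA, all of them downstream of the start by 128 to 968 bp. That side is fixed by the annotation, which calls peaks upstream promoter peaks before it looks for repeats. Of the 33 control peaks, 23 were RMER17B. They lay in intron 1 of 16 named genes, 155 to 346 bp from the TSS. By contrast the other RMER17B control peaks lay more than 10 kb from a TSS. The ETn elements were the most distant of the frequent elements, with medians of 95720 bp for ETnERV-int and 109032 bp for MMETn-int. RLTR17 had a median of 23802 bp, and 7 of its 36 peaks were within 10 kb.

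**Figure D2:**
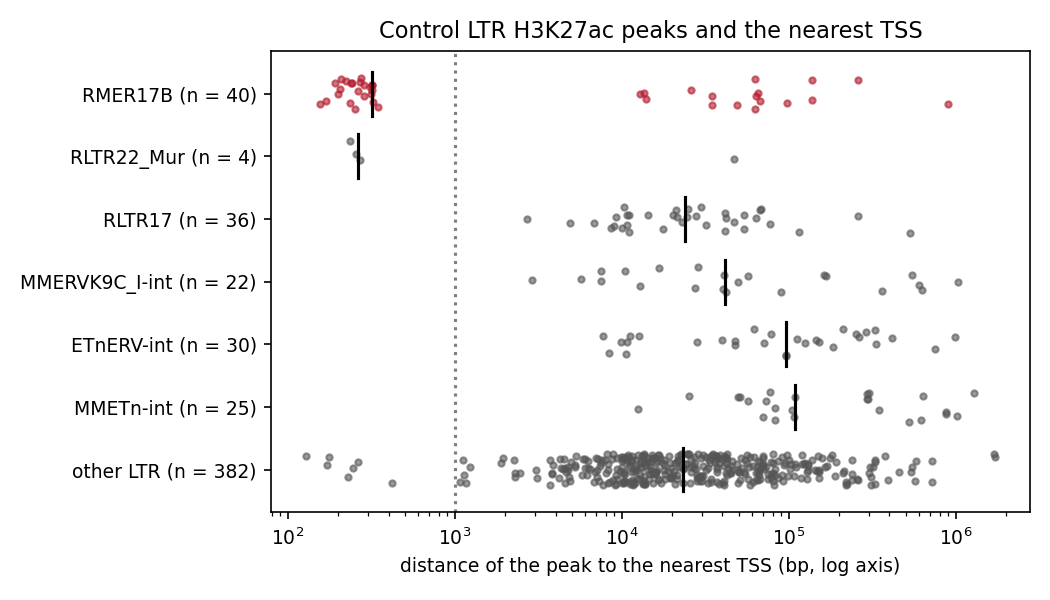
Distance of each control LTR H3K27ac peak to the nearest TSS (bp, log axis), by element; bars are medians and the dotted line is 1 kb. The 40 RMER17B peaks fall into 23 within 346 bp and the rest beyond 10 kb, while MMETn-int has its median at 109032 bp.

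The RMER17B peaks near genes formed a block on chromosome 2. Of the 40 control RMER17B peaks, 34 were on this chromosome, and 32 lay between positions 175206459 and 178078555 of mm10, a span of 2872 kb. The span runs from the start of the control RMER17B peak at Gm6710 to the end of the GW3965 RMER17B peak at Zfp931. Because its bounds come from RMER17B peaks, the weight of RMER17B within it follows in part from how it was drawn. RMER17B accounted for 32 of the 41 control H3K27ac peaks there. With GW3965 it was 22 of 24, with LG268 13 of 14 and with RA 21 of 23. The span holds 67 RefSeq genes, of which 28 are protein coding and 9 are named Zfp, the name for zinc finger proteins. Most of the genes beside the peaks are predicted genes with names beginning Gm, and several have Zfp names in RefSeq, such as Gm14420 (Zfp970), Gm14431 (Zfp967) and Gm8898 (Zfp966).

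At Gm14305 the peak scored 13.08 in the control, 4.82 with GW3965, 5.29 with LG268 and 8.97 with RA. At Gm14295 the scores were 12.83, 7.98, 10.11 and 3.87, and at Gm14325 they were 10.48, 12.66, 4.12 and 9.34. All 3 genes had a peak in every list, but the scale of the score between lists is not stated, so the order of scores across treatments carries no comparison. Etohi1 scored 10.34, 7.28, 5.98 and 8.16. Zfp931 scored 9.61 in the control, 6.10 with GW3965 and 10.52 with RA, and had no peak with LG268. Gm14327 and Gm14403 had RMER17B peaks in the control, LG268 and RA lists and none with GW3965. The list in which a given gene lacked a peak thus differed from gene to gene. Gm14432 is named for 5 control peaks, because the annotation places its transcripts at several positions of the block. The RMER17B copies of the block were not aligned, and likeness was measured only for the promoters shown above. How reads that match several places were placed is not given in the sources used here. A peak in the block thus cannot be assigned firmly to a single copy.

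The RLTR22_Mur group was smaller and lay on chromosome 13, beside genes that include Zfp808, Zfp934 and Zfp935. At Zfp808 the peak scored 18.55 in the control, 13.72 with GW3965, 3.71 with LG268 and 6.34 with RA. At 6720489N17Rik it scored 8.03, 5.33, 4.36 and 8.03. At Zfp935 all 4 lists had a peak, with scores of 20.26, 15.93, 14.61 and 10.42, but only the GW3965 and RA peaks were annotated to the LTR. Membership follows the centre of each list's own peak, so a region can be called in a list without being counted there as LTR. The peak at Zfp934 was annotated to RLTR22_Mur in the control alone, with a score of 7.24, and that at Gm3604 in the GW3965 list alone, with 7.95. In the other 3 lists each gene had an overlapping peak of another annotation.

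Control LTR peaks were found again with a ligand less often than control peaks at large. An H3K27ac peak of the GW3965 list overlapped 193 of 539 (35.8%, 31.8 to 40.0%), beside 68.8% of all control peaks and 55.6% of the comparison set. For LG268 the count was 97 (18.0%, 14.8 to 21.5%), beside 51.8% and 38.2%. For RA it was 126 (23.4%, 19.9 to 27.2%), beside 60.2% and 45.8%. All 3 ligand lists are set against the same control list. These shares depend on list length: with each list limited to its 12472 highest peaks they were 50% with GW3965, 51.8% with LG268 and 45.6% with RA, beside 71.4%, 68.0% and 68.2% of the comparison set, and the order of the ligands changed. In every ligand list 58 control LTR peaks (10.8%) were found again, against 43.7% of all control peaks. In no ligand list 291 (54.0%) were found, against 22.6%. LINE peaks, at 45.2%, 11.7% and 20.4%, were above LTR peaks with GW3965 and below them with LG268 and RA. SINE peaks stood at 40.8%, 24.5% and 29.8%. Of the overlapping peaks, 162 of 193, 83 of 97 and 106 of 126 were themselves annotated to an LTR, and 147, 77 and 100 to the same element.

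Weak control peaks were found again less often in every class, so the shares were also taken within 4 bins of the control score that hold equal numbers of control peaks, with bounds at 5.10, 8.22 and 15.37. In the lowest bin, which held 293 of the 539 LTR peaks, 20.1% were overlapped by a GW3965 peak, 8.87% by an LG268 peak and 10.2% by an RA peak. The comparison set stood at 28.5%, 13.4% and 19.8%. In the second bin the LTR shares of 180 peaks were 43.9%, 15.0% and 28.9%, against 53.9%, 29.9% and 39.7%. In the third bin, with 56 LTR peaks, they were 80.4%, 62.5% and 62.5%, against 85.4%, 65.6% and 75.6%. In the highest bin 10, 9 and 9 of 10 LTR peaks were found. The counting intervals of both classes were apart in the lower 2 bins, except with LG268 in the lowest and with GW3965 in the second, and they overlapped in the third bin with all 3 ligands. With peaks within 1 kb of a TSS left out, 33.6%, 16.2% and 20.8% of LTR peaks were found, against 44.4%, 25.9% and 32.7% of the comparison set.

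**Figure D3:**
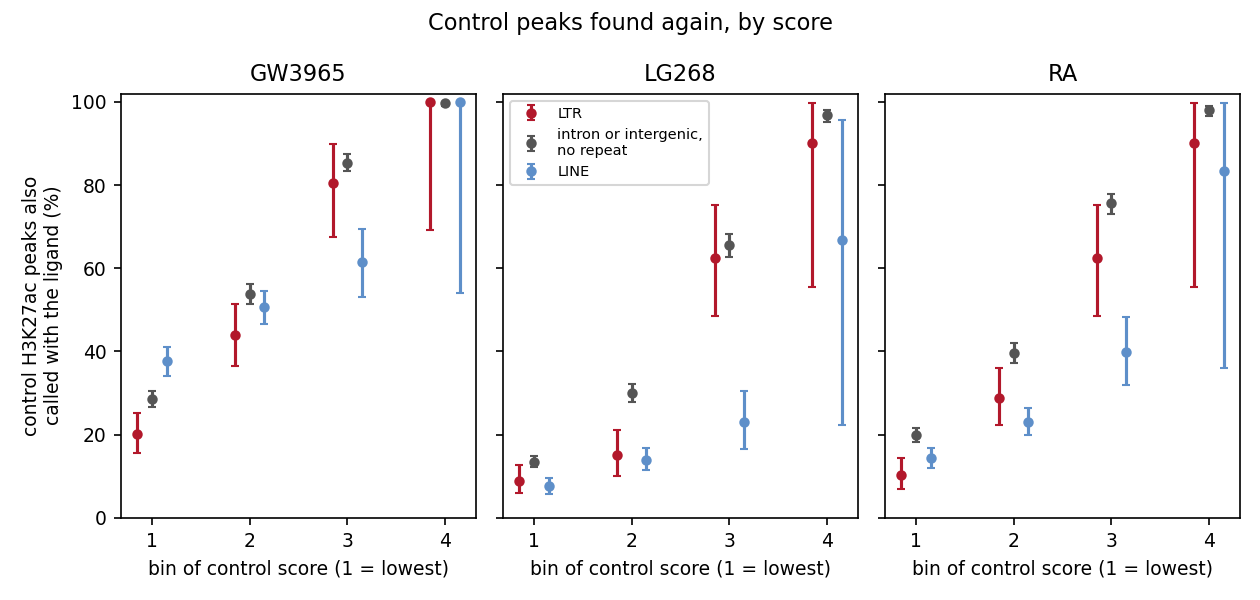
Share of control H3K27ac peaks overlapped by a peak of the GW3965, LG268 or RA list (%), by bin of the control score (1 lowest, 4 highest); points are shares and bars exact 95% intervals for counting error, for LTR peaks, intron or intergenic peaks outside repeats, and LINE peaks. LTR shares rise from 20.1%, 8.87% and 10.2% in the lowest bin to 10, 9 and 9 of 10 peaks in the highest.

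The families and elements differed in how many of their control peaks were found again. ERV1 peaks were found in 43.1%, 22.4% and 25.9% of cases with the 3 ligands (GW3965, LG268 and RA), and ERVK peaks in 38.5%, 20.1% and 26.0%. ERVL stood at 31.1%, 11.1% and 17.8%. ERVL-MaLR was the lowest of these 4 families, with 22.9%, 10.4% and 14.6%. Of 40 RMER17B peaks, the GW3965 list recovered 25 (62.5%, 45.8 to 77.3%), with 16 (40.0%, 24.9 to 56.7%) in the LG268 list and 24 (60.0%, 43.3 to 75.1%) in the RA list. Without RMER17B the LTR shares were 33.7%, 16.2% and 20.4%. Of 36 RLTR17 peaks, 19, 8 and 14 were found. Of the 55 ETnERV-int and MMETn-int peaks, the GW3965 list recovered 10 (18.2%), the LG268 list 1 (1.82%) and the RA list 0 (0%, 0 to 6.49%).

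The ETn peaks were also lower scoring than RMER17B, with control medians of 4.53 and 4.24 against 6.48. In the lowest score bin, 6 of 36 ETn peaks were recovered in the GW3965 list, 1 in the LG268 list and 0 in the RA list. For RMER17B in that bin, the counts were 5, 4 and 4 of 13. In the second bin ETn had 3, 0 and 0 of 17, and RMER17B had 12, 4 and 10 of 16. In the lowest bin the intervals of the 2 groups overlapped for all 3 ligands, such as 0 to 9.74% for ETn and 9.09 to 61.4% for RMER17B with RA. In the second bin they were apart with RA, at 0 to 19.5% and 35.4 to 84.8%, and with GW3965, at 3.80 to 43.4% and 47.6 to 92.7%, and overlapped with LG268.

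**Figure D4:**
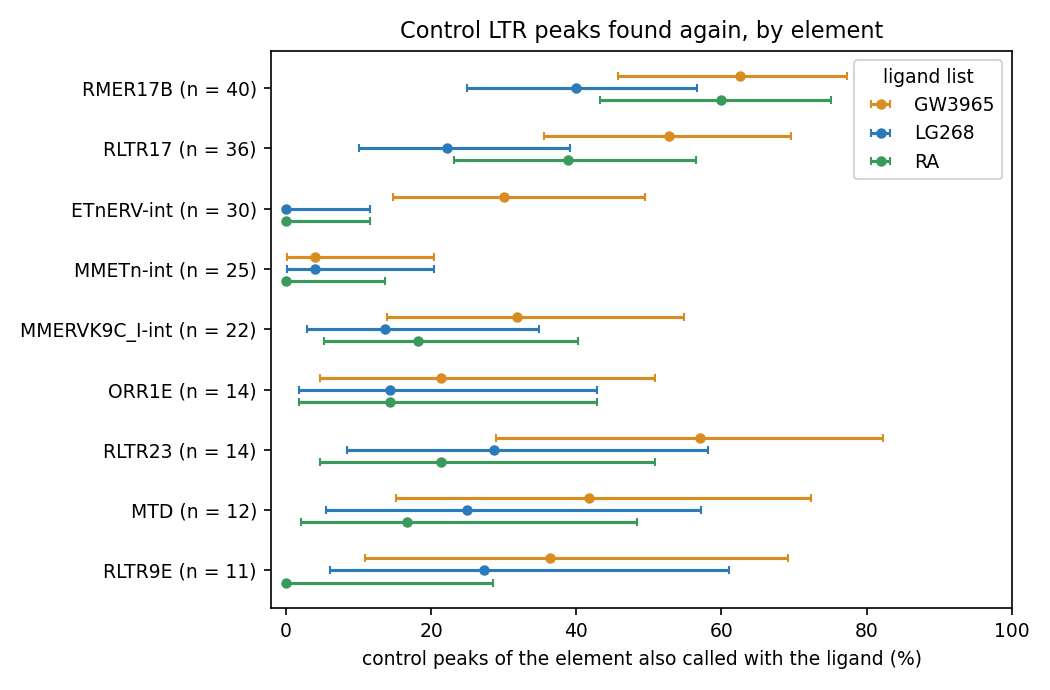
Share of control H3K27ac peaks of each frequent LTR element that a peak of the ligand list overlaps (%), with exact 95% intervals for counting error; n is the number of control peaks. RMER17B has the highest shares, 62.5%, 40.0% and 60.0% with GW3965, LG268 and RA, and MMETn-int has 4.00%, 4.00% and 0%.

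In the opposite direction, 195 of 393 LTR peaks of the GW3965 list (49.6%, 44.6 to 54.7%) had no control peak, beside 16.9% of all GW3965 peaks. With LG268 it was 42 of 139 (30.2%), beside 8.74%, and with RA 63 of 188 (33.5%), beside 12%. The comparison set stood at 28.0%, 18.3% and 23.2%. LINE peaks, at 41.2%, 39.2% and 40%, were below LTR peaks with GW3965 and above them with LG268 and RA. SINE peaks stood at 44%, 24.7% and 28%. ETnERV-int accounted for 12 of the GW3965 peaks without a control peak, of its 20 in that list, and MMETn-int for 13 of its 15. Whether these peaks lie in other copies than the control peaks was not tested.

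Merging the LTR peaks of the 4 lists gave 856 regions. The control alone called 291 of them, GW3965 alone 162, RA alone 33 and LG268 alone 24. The control and GW3965 together called 105, and all 4 lists called 79. Among these 79, RMER17B had 9 regions, RLTR17 8 and RLTR22_Mur 8, and 14 lay within 1 kb of a TSS. Among the 291 of the control alone, MMETn-int had 24, ETnERV-int 21, and 4 lay within 1 kb of a TSS. With lists of equal length, 329 regions remained, of which 36 were called in the control alone and 47 in every list. No matching counts were taken for merged regions of all peaks or of the comparison set. Since the lists differ in length, the pattern cannot be read as particular to LTR regions.

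**Figure D5:**
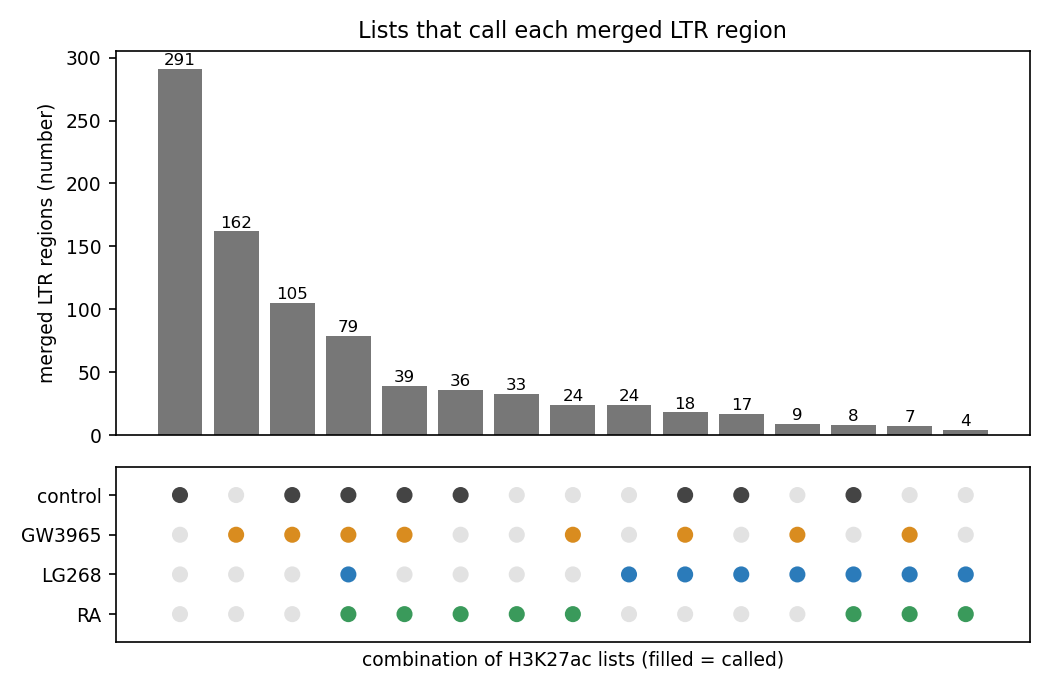
Number of merged LTR regions called by each combination of the 4 H3K27ac lists; filled circles mark the lists that call a region. The control alone calls 291 of 856 regions and all 4 lists call 79.

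The highest LTR regions called in every list lay at BC018473, Gtse1, Nwd1, Erbb2ip and Gramd1b. The RMER13A1 peak upstream of BC018473 scored 28.79 in the control, 24.59 with GW3965, 13.07 with LG268 and 16.26 with RA. It was among the 10 highest LTR peaks in all 4 lists, as were those at BC051142 and Gramd1b. At BC051142 an RMER21A peak in intron 1 scored 21.97, 24.07, 11.39 and 18.87. Gramd1b encodes a carrier of cholesterol from the plasma membrane to the endoplasmic reticulum. Its RLTR16C_MM peak lay in intron 1, 40908 bp from the TSS in the control list, and scored 24.70, 14.66, 10.52 and 17.52. The region 230 bp into Gtse1, a gene of the cell cycle, scored 28.20, 18.54, 7.86 and 9.95, and its centre was annotated to RMER15 in the control and GW3965 lists only. The peak at Erbb2ip, which encodes the scaffold protein Erbin, scored 27.53, 22.70, 17.07 and 16.88, and only in the GW3965 list was its centre annotated to the LTR. Near Sall1, a zinc finger transcription factor gene, a region with an MTD peak 93661 bp from the TSS in the LG268 list scored 9.83, 6.51, 10.54 and 8.78, and a region 8621 bp upstream, by its LG268 peak, scored 12.56, 9.41, 10.09 and 14.49. Its centre was annotated to RLTR20B3 with GW3965 and LG268 only, and the GW3965 peak of the more distant region was annotated to another LTR. An RLTR17 peak in intron 9 of Lphn3, an adhesion receptor gene, scored 13.73, 13.13, 9.31 and 18.82.

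Among regions called in a single list, the highest of the control alone were an RLTR17 region in Cntnap2, at 10.19, and regions near Ndufa10 (9.92), Foxo1 (9.49), Hmgn2 (8.88) and Sdf2 (8.65). Foxo1 encodes a forkhead transcription factor and Hmgn2 a nucleosome-binding protein. With GW3965 alone they were near Ifitm6 (10.69), Ksr2 (9.05), Ceacam18 (8.07), Tgif2lx2 (7.72) and Ostc (7.70). With LG268 alone the highest was an intergenic RMER6A region (6.55) whose nearest gene, Robo1, starts 410315 bp away, followed by regions near Chst3 (6.45), Wiz (5.96), Npl (5.57) and Lypla1 (5.29). With RA alone they were near Cox8c (9.82), Gm15413 (7.68), Mmp25 (6.17), Bbs9 (5.98) and Dclk3 (5.47).

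Of the 13955 genes named in these lists, 4.49% were the nearest gene of an LTR H3K27ac peak within 100 kb in any list. Other genes with a TSS in that distance were not counted. By list it was 2.77% in the control, 2.25% with GW3965, 0.803% with LG268 and 1.09% with RA. Of 19 pluripotency genes, 16 retinoic acid receptor targets and 15 LXR targets among the named genes, 0 were nearest to such a peak. Of 31 genes of the 2-cell stage, when ERVL elements are known to be active, only 3 were among the named genes. Of these 3, 0 were nearest to such a peak. Of 36 genes for retroelement silencing, 3 were nearest to one. Zfp809, whose product silences murine leukaemia virus in ES cells, had an RLTR1F_Mm peak in intron 1, 1234 bp from the TSS in the control list, with scores of 7.09 in the control and 7.72 with RA. Atf7ip, which encodes a partner of SETDB1, had an RLTR35B_MM peak 28042 bp upstream with GW3965, at 3.20. Yy1 had an MTD peak 34876 bp upstream with RA, at 4.96. The peaks at Atf7ip and Yy1 were each called as LTR in a single list.

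Few LTR H3K27ac peaks met RXR. An RXR peak of the same treatment overlapped 3 of 539 in the control (0.557%, 0.115 to 1.62%), beside 1.62% of all control H3K27ac peaks and 1.42% of the comparison set. With GW3965 it was 6 of 393 (1.53%, 0.562 to 3.29%), beside 0.963% and 0.804%. With LG268 it was 5 of 139 (3.60%, 1.18 to 8.19%), beside 4.14% and 4.2%, and with RA 7 of 188 (3.72%, 1.51 to 7.52%), beside 3.74% and 3.58%. The shares with GW3965, LG268 and RA were thus within counting error of the background, and that of the control touched it at its upper bound. The RXR lists held 1089, 940, 2089 and 1970 peaks in the order control, GW3965, LG268 and RA. Read from the RXR side, 3 of 27, 5 of 154, 3 of 54 and 7 of 54 RXR peaks in LTRs had an H3K27ac peak. These shares were 11.1%, 3.25%, 5.56% and 13%, beside 32%, 18.2%, 24.5% and 27.8% of all RXR peaks. Of intron and intergenic RXR peaks outside repeats and CpG islands it was 13.8%, 7.28%, 8.42% and 9.97%. The LTR share was thus below that of all RXR peaks in each list, and above the latter set with RA only. The GW3965 RXR list held 23 peaks in RLTR13D6 and 10 in RLTR9E. The GW3965 H3K27ac list held only 3 and 4 peaks of these elements, and none of them overlapped RXR. So few peaks cannot show whether RXR and H3K27ac stay apart there. None of the RMER17B H3K27ac peaks overlapped an RXR peak of the same treatment.

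The 21 overlaps fell on 13 loci, and most of these carried RXR whatever the treatment. All 4 treatments had both marks at an RLTR33 element in intron 1 of Aida, which encodes an axin-binding protein, and at an RLTR44-int element in intron 22 of Dock2, which encodes an activator of Rac in lymphocytes. At Aida the H3K27ac peak scored 22.44 in the control, 21.67 with GW3965, 7.12 with LG268 and 9.95 with RA, and the RXR peak 20.74, 26.21, 35.68 and 47.64. At Dock2 the H3K27ac scores were 8.54, 17.94, 6.93 and 11.77 and the RXR scores 15.78, 8.27, 12.86 and 22.13. At an ORR1E element 191936 bp upstream of Fezf2, a forebrain transcription factor gene, both marks met in LTR peaks of the control, GW3965 and RA lists. An RXR peak was present in all 4 ES lists and all 4 differentiation libraries at 8 of the 13 loci, and in all 4 differentiation libraries at 11. Over all control H3K27ac peaks with RXR, 70 of 348 (20.1%) had RXR in all 8 lists, whereas all 3 of the LTR peaks did. With GW3965 it was 5 of 6 LTR peaks beside 73 of 171, with LG268 3 of 5 beside 62 of 516, and with RA 5 of 7 beside 77 of 559. The trait was not particular to LTR peaks. For LINE peaks it was 4 of 4 in the control, 2 of 5 with GW3965, 4 of 5 with LG268 and 3 of 6 with RA. SINE peaks had 2 of 5, 2 of 3, 1 of 3 and 1 of 11 in the same order.

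At 6 of the 13 loci the centre of the overlapping RXR peak was annotated to the telomere-type repeat (TTAGGG)n or (CCCTAA)n next to the LTR. These were the loci at Fezf2, Map3k7, 4930428G15Rik, 4930515G16Rik, Cox8c and Tmcc3. At Map3k7, which encodes the kinase TAK1, the RXR peak scored 40.60, 13.30, 58.21 and 34.55 in the 4 ES lists and between 65.03 and 91.55 in the differentiation libraries. Cox8c, named above for a region called with RA alone, had RXR peaks in the other ES lists too, at 21.76 in the control, 9.19 with GW3965 and 29.72 with LG268. Thus its RXR peak was not limited to the list with the LTR H3K27ac peak. Whether sequence of telomere repeats elsewhere adds reads at these loci was not tested. Only Slc18b1, at a BGLII_A element, had RXR in the GW3965 list alone, with a score of 3.38 at rank 883 of 940.

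RXR in the differentiating cells met a share of control LTR peaks near that of all control H3K27ac peaks, apart from day 8 replicate 2. In each of the 4 libraries, RXR peaks overlapped the same 3 of 539 control LTR H3K27ac peaks, at Aida, Dock2 and Fezf2 (0.557%). Over all control H3K27ac peaks the share was 0.574% in day 16 replicate 1 and 0.532% in replicate 2. At day 8 it was 0.803% in replicate 1 and 1.79% in replicate 2. The interval of the LTR share, 0.115 to 1.62%, held these values except the last. Of the 856 merged LTR regions, 12 (1.40%) were overlapped in each of the 4 libraries. No matching share was taken for merged regions of all peaks. The 12 regions include one near Edn1, the gene of endothelin 1, which is not among the 13 loci. The day 8 lists held 1154 and 2044 RXR peaks and the day 16 lists 429 and 409, so the number of LTR regions met was the same in lists of different length.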

How the data were processed

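H3K27ac and RXR were measured by ChIP-seq in 12 libraries of E14 mouse ES cells and their derivatives, and 1 peak list per library was used. Per the submitters' processing notes, BWA 0.6.0, HOMER 4.2 and MACS2 2.0.10 were used; the builds mm9 and mm10 are named without a role, and the annotation was made on mm10, per the file headers. The score of each peak is the value the authors deposited; its scale between lists is not stated, so it was used within a list, apart from a score bound of 5.10, the lower quartile of the control list, put on all lists as an alternative. Distance to the TSS, nearest gene and annotation are also the authors' deposited values, and per the labels the ligand doses are 1 µM. Depth per library is unknown, as read totals are not part of a peak list.

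Peaks of class LTR were taken as members. Families marked as uncertain, 1, 1, 1 and 2 peaks in the control, GW3965, LG268 and RA lists, were kept under that rule, although the plan of tests had left them out. Overlap meant at least 1 bp. Shares have exact (Clopper-Pearson) 95% intervals. No test was made, since each treatment has 1 library. Genes were named as the nearest genes of the 10 highest LTR peaks per list, of the 5 highest regions per pattern, of peaks with RXR, and as members of gene lists; the genes of the RMER17B and RLTR22_Mur groups were chosen after their values were seen. The members, lists and comparisons were chosen with earlier results of these data known. Promoter sequences are RefSeq's for GRCm38.p6, matched by gene ID; as a check of coordinates, peak centre and distance together pointed to a gene end of that table, within 1000 bp, for 1093 of 1259 LTR peaks (86.8%). The planned scan of peak sequences for motifs was not run, because no genome was used here. On simulated data, overlap counting found all 167 overlaps planted among the 539 control LTR peaks. The software was scipy 1.17.1, pandas 2.3.3, numpy 2.4.6, Biopython 1.88 and matplotlib 3.10.9 under Python 3.11.15.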

Additional observations from a re-analysis of the deposited data

How the results depend on the processing

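Of 117 recalculations of 29 values, 57 stayed within the counting interval, or for counts within 1.5 times, of the reported value and 60 did not. The share of control LTR peaks found again was below that of the comparison set with each ligand in all 8 settings run on both. With scores at or above 5.10 in all lists, the LTR peaks numbered 246 in the control, 187 with GW3965, 57 with LG268 and 86 with RA. Their shares of the lists were 1.53%, 1.39%, 0.623% and 0.760%. With lists of equal length the numbers were 114, 151 and 118 in the control, GW3965 and RA lists and the shares 0.914%, 1.21% and 0.946%. Over 5 kb from the TSS the shares were 7.08%, 6.88%, 5.29% and 4.85% in the 4 lists.

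The ERVK share was 69.9% in the control and 76.7% with RA above the score bound, and 77.2% and 71.2% with equal lengths. The share of control LTR peaks found again with GW3965, LG268 and RA was 28.8%, 12.6% and 17.4% at 50% reciprocal overlap, 43.0%, 22.4% and 28.0% over gaps of 1 kb, and 50%, 51.8% and 45.6% with equal lengths, where the order of the ligands changed. It was 30.1% with GW3965 and 19.7% with RA when the ligand peak also had to be LTR, and 19.5% with RA over 5 kb from the TSS. The comparison set, whose intervals are narrow, stood at 44.6%, 29.8% and 36.8% at reciprocal overlap, 58.3%, 40.3% and 48.2% with centres within 500 bp, 65.8%, 47.6% and 55.2% over gaps of 1 kb, 60.0%, 39.8% and 49.3% above the score bound, 71.4%, 68.0% and 68.2% with equal lengths, 42.8%, 24.8% and 31.2% over 5 kb and 44.4%, 25.9% and 32.7% over 1 kb from the TSS. LTR peaks with RXR were 5.85% with GW3965 when gaps of 1 kb counted, and 8.14% with RA above the score bound. No share of all peaks or of the comparison set was taken under these settings. The values therefore cannot be set against the background given above. Merged regions with equal lengths were 329, with 47 in every list and 36 in the control alone. Median distances stayed within their intervals. Leaving out RMER17B, the uncertain families or peaks within 1 kb of a TSS, and counting elements by list length or score bin, are choices made after seeing the data.

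The values rest on 1 library per treatment and on peak calls whose depth is unknown, so treatment and library cannot be told apart. Peaks in repeat copies of like sequence depend on how reads matching several copies were placed, and the likeness of the copies was not measured. No paired analysis was possible because each ES treatment has 1 library and no value comes from a test.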
